A study of Rattus norvegicus with 24 samples.

Results

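The activating and inhibitory receptors of myeloid cells were examined through 10 genes, chosen by symbol from a table of 30043 genes counted in rat lung: Lilrb4, Fcgr2b, Sirpa, Siglec1, Oscar, Trem1, Fcgr1a, Clec7a, Tyrobp and Fcer1g. The 10 genes were proposed with their levels in these same libraries already known, so their levels and differences are given below as a description and not as evidence for the choice. All 10 were found and all 10 passed the filter on low counts, which kept 13322 genes. The 24 libraries came from the lungs of 24 male Fischer 344 rats bought at 3 months of age, with 6 animals in each of 4 groups. Air animals breathed air for 29 weeks. Silica animals breathed Min-U-Sil5 crystalline silica, a respirable quartz dust, at 15 mg/m3 for 6 hours a day on 5 days of week 3 and air in all other weeks. Smoke animals breathed cigarette smoke for 3 hours on Tuesdays and Fridays, at 40 mg/m3 in week 1 and at 80 mg/m3 in week 2 and from week 4 on, with air in week 3. The combined group received smoke on the same days, starting at 45 mg/m3, and silica in week 3. Exposure was of the whole body in a chamber, and total RNA came from a piece of lung.

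Macrophages, monocytes and neutrophils carry paired receptors that raise or dampen their response to particles, antibodies and damaged cells. Activating receptors such as Trem1, Oscar and Fcgr1a have no signalling motif of their own and borrow a tyrosine motif called ITAM from the small adaptors Tyrobp (DAP12) and Fcer1g (the Fc receptor gamma chain), which then engages the kinase Syk. Inhibitory receptors such as Lilrb4, Fcgr2b and Sirpa carry the ITIM motif, which recruits the phosphatases Ptpn6, Ptpn11 or Inpp5d. In the lung these receptors sit largely on alveolar and interstitial macrophages and on recruited monocytes and neutrophils.

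Depth was uneven. Total counts were 21629 in smoke 2, 280484 in silica 4 and 1084815 to 4687805 in the other 22 libraries. Smoke 2 held 9 counts over all 10 genes, and 3 counts in it stand at 159 CPM (counts relative to the scaled library total), so single genes could not be measured there. Its values of 0 for Oscar, Trem1, Fcgr2b, Siglec1 and Sirpa are below what that library could detect reliably. In silica 4, 3 counts stand at 10.8 CPM, which covers its value of 0 for Trem1. The libraries labelled silica 1 and smoke 1 stood apart from their groups. Silica 1 lay above all air libraries for 2 of the 10 genes, against 6 to 9 of 10 in the other silica libraries. Smoke 1 did so for 7 of 10, against 1 or 2 of 10 in smoke 3 to 6. The library air 6, the deepest, was the lowest of the air libraries for 10 of 10 genes. It also held 4899 CPM of Col3a1, where the air median was 746, and was left out only in the fits without single libraries. By the count of genes above all air libraries, silica 1 lay nearer to the air libraries and smoke 1 nearer to the other silica libraries. Whether both libraries carry the right label was not tested, so silica and smoke values hold for libraries so labelled. Labels were kept as deposited, and results that rest on silica 1, smoke 1 or smoke 2 are repeated with these 3 left out. Alveolar type 2 markers, which mark the lung's surfactant-making epithelium, summed to 12050 to 26530 CPM in 23 libraries and to 1324 CPM in smoke 2. Erythroid markers summed to 518500 CPM in smoke 2, to 12890 in smoke 6 and to 2043 to 4957 in the others. The lung label thus has its defining markers in 23 libraries. In smoke 2 they were low, with 10 counts of Sftpa1, so the label could not be checked there. The haemoglobin gene Hbb passed as higher with smoke (4.86 ± 1.01) and stood at 0.55 ± 0.30, not passing, without smoke 2. In bulk lung, more cells of a type and more RNA per cell cannot be told apart.

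The sequence just upstream of the transcription start was available for 4 of the 10 genes from RefSeq (build GRCr8). Of these, 3 are shown because Lilrb4 and Oscar had large differences and Clec7a a small one. Each is the run of 250 bases before the start, 5′ to 3′ on the gene's own strand, with capitals marking GAGGAA, the core of the site bound by the myeloid factor PU.1.
Lilrb4 (chr1:78853253-78853502, minus strand): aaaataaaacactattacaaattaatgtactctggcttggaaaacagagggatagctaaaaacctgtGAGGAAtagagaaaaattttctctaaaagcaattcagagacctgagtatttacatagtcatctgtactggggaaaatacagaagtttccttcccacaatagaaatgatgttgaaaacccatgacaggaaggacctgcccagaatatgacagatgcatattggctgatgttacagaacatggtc
Oscar (chr1:74522633-74522882, plus strand): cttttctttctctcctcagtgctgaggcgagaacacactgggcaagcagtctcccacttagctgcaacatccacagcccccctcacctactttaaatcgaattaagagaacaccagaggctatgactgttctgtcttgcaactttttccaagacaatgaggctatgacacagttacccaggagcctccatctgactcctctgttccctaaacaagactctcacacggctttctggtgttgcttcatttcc
Clec7a (chr4:164599828-164600077, minus strand): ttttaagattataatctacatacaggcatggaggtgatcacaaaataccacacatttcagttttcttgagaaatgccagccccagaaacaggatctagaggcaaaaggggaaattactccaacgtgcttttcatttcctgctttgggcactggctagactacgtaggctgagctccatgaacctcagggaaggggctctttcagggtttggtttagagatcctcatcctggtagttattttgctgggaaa
GAGGAA, searched on both strands, occurred in 1 of the 4 upstream runs (Lilrb4, 183 to 178 bases before the start) and in 23.3% of 33469 rat runs of the same length. TGANTCA, the site bound by AP-1 factors, occurred in 0 of 4 and in 6.34% of all. The motifs were chosen after the values were seen, and these shares of so few genes carry no reading.

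The 10 genes were mostly highest in the combined group, next in silica, and lowest in smoke or air. The combined group had the highest median for 9 of 10, Oscar being the exception with silica on top. Against air, 4 of 10 genes passed after silica (edgeR, adjusted p under 0.05), where 3.17% of all tested genes passed (2.15% higher and 1.01% lower). In the combined group 9 of 10 passed, where 22.4% of all tested genes passed (11.6% higher and 10.8% lower). Every one of these 4 and 9 calls was of a higher level. With smoke alone 0 of 10 passed (2 at an unadjusted p under 0.05; 0 with DESeq2, limma voom or voom with quality weights), where 0.15% of tested genes passed (0.0976% higher and 0.0525% lower). Of all 13322 tested genes, 1105 stood at an unadjusted edgeR p under 0.05 with smoke. The median log2 fold change of the 10 was 0.69 after silica, 0.27 with smoke and 1.14 in the combined group, beside -0.004, -0.009 and -0.009 over all tested genes. These 3 comparisons share the air libraries and used the levels behind the choice of genes, so nothing is read from the counts.

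**Figure D1:**
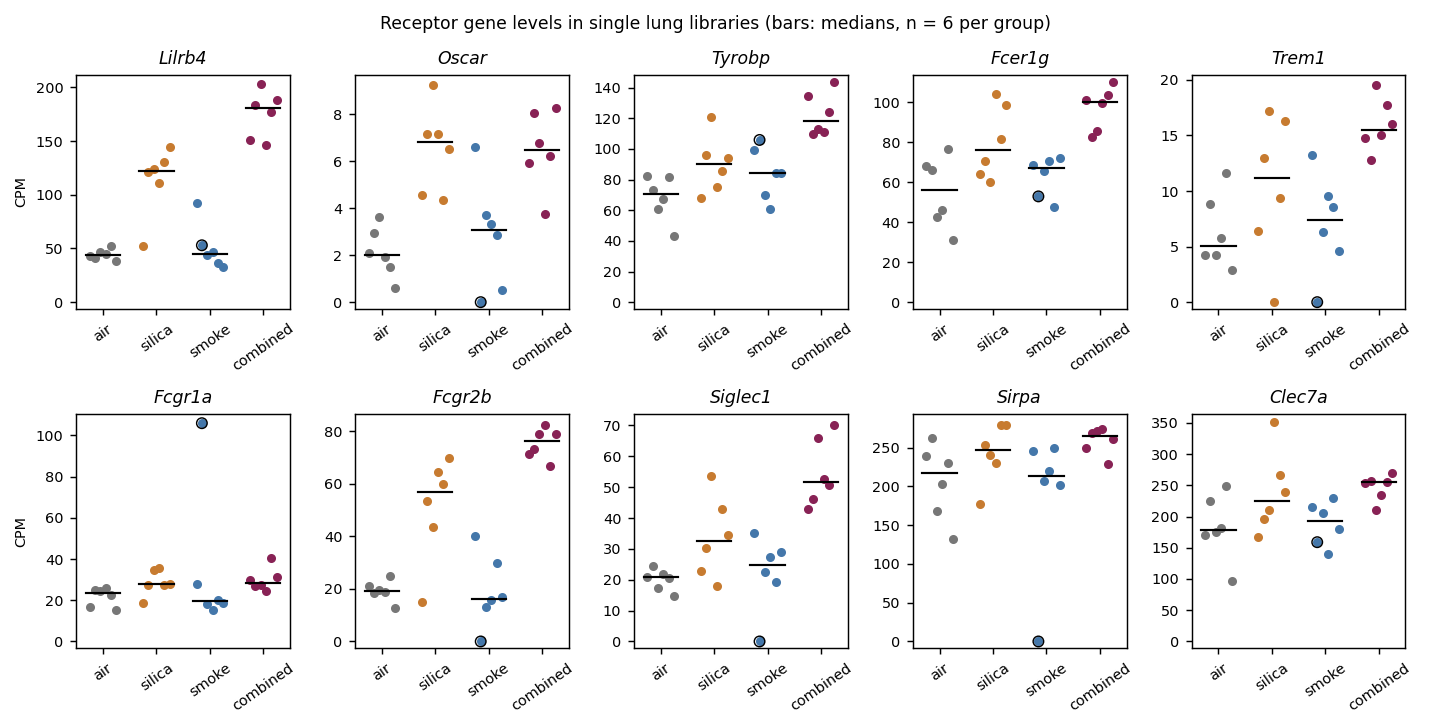
Level of each of the 10 receptor genes in every library, in CPM on a linear axis, by group, with a bar at the group median. Each point is 1 animal, placed by replicate from left to right, and the ringed point is smoke 2 with 21629 counts. The combined libraries of Lilrb4 (146 to 203 CPM) and Fcgr2b (67.0 to 82.6 CPM) lie above all air libraries, while those of Sirpa and Clec7a overlap them.

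Among the inhibitory receptors, Lilrb4 (gene identifier 292594), an immunoglobulin-like receptor with ITIMs, was higher after silica and in the combined group. It stood at 38.5 to 52.0 CPM in air (median 44.0), 52.1 to 145 in silica (median 122), 33.1 to 92.6 in smoke (median 45.1) and 146 to 203 in the combined group (median 180.3). Every silica library was above every air library, although silica 1, at 52.1 CPM, was barely above the highest air library, and the next silica library stood at 111 CPM. Smoke 1 was the 1 smoke library well above air. The log2 fold change was 1.37 ± 0.20 (SE) after silica and 1.99 ± 0.19 in the combined group, a 3.96-fold difference, against 0.23 ± 0.21 with smoke, which was -0.13 without smoke 1. The combined libraries also lay wholly above the silica libraries (0.62 ± 0.18, not passing), as 0.743% of tested genes did. Lilrb4 passed in that comparison without silica 1, smoke 1 and smoke 2, at 0.45 ± 0.09, as the 1 of 10 genes to do so. The table holds a further line with the same identifier, with at most 3 counts in any library, so reads shared between copies are a limit.

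Fcgr2b (289211), the inhibitory receptor for IgG, also had its highest median in the combined group and the next in silica. It stood at 12.9 to 25.1 CPM in air (median 19.2), 15.1 to 69.8 in silica (median 56.9), 0 to 40.0 in smoke (median 16.3) and 67.0 to 82.6 in the combined group (median 76.2). Silica 1, at 15.1 CPM, lay inside the air range, and the other silica libraries stood at 43.7 CPM or more. The log2 fold change was 1.39 ± 0.25 after silica, 1.98 ± 0.24 in the combined group and 0.28 ± 0.28 with smoke (-0.08 without smoke 1). Reads of Fcgr2b and its near relatives Fcgr2a and Fcgr3a may be split between genes by the counting.

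Sirpa (25528), the ITIM receptor that reads the don't-eat-me signal Cd47, had the smallest difference of the 10 between the combined group and air. It stood at 132 to 262 CPM in air (median 217), 178 to 280 in silica (median 247), 0 to 249.7 in smoke (median 214) and 229 to 274 in the combined group (median 265). All groups overlapped, and the log2 fold change was 0.26 ± 0.14 after silica and 0.34 ± 0.14 in the combined group. It was the 1 of 10 genes that did not pass in the combined group, and it passed there when silica 1, smoke 1 and smoke 2 were all left out (0.33 ± 0.11), or any one of air 2, silica 1 or smoke 2.

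Siglec1 (311426), the sialic acid receptor sialoadhesin of macrophages, has no ITIM and was taken with neither class. It stood at 14.8 to 24.4 CPM in air (median 20.8), 17.9 to 53.5 in silica (median 32.4), 0 to 35.04 in smoke (median 24.9) and 42.9 to 70.2 in the combined group (median 51.7). Silica overlapped air through silica 1 and the shallow silica 4, and the combined libraries were all above air and smoke. The log2 fold change was 0.86 ± 0.19 after silica, passing but lost without silica 5 or with the 2 groups only, and 1.47 ± 0.18 in the combined group.

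The activating receptors Oscar and Trem1 were low. Oscar (292537), a collagen receptor first found on osteoclasts, had 3 to 11 counts in the air libraries and 2 to 16 in the silica libraries. It stood at 0.615 to 3.62 CPM in air (median 2.02), 4.36 to 9.22 in silica (median 6.83), 0 to 6.61 in smoke (median 3.09) and 3.76 to 8.26 in the combined group (median 6.48). Silica and combined libraries were all above air, and they overlapped each other (0.10 ± 0.31). Silica 4 held 2 counts, and combined 4 held 4 counts at 3.76 CPM, beside 3.62 CPM in the highest air library. The separation from air thus rests on few counts. The log2 fold change was 1.62 ± 0.36 after silica, which did not pass with DESeq2 or limma voom, 1.72 ± 0.35 in the combined group and 0.85 ± 0.40 with smoke.

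Trem1 (301229), which amplifies inflammation in neutrophils and monocytes through Tyrobp, stood at 2.87 to 11.6 CPM in air (median 5.05), 0 to 17.2 in silica (median 11.2), 0 to 13.2 in smoke (median 7.43) and 12.8 to 19.5 in the combined group (median 15.5). The combined libraries were above all air libraries and overlapped smoke through smoke 1. The log2 fold change was 0.95 ± 0.31 after silica, not passing, and 1.41 ± 0.29 in the combined group.

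Fcgr1a (295279), the high-affinity activating receptor for IgG, stood at 15.2 to 25.8 CPM in air (median 23.4), 18.7 to 35.9 in silica (median 27.7), 15.5 to 106 in smoke (median 19.4) and 24.4 to 40.5 in the combined group (median 28.5). The value of 106 CPM was 2 counts in smoke 2, and the other smoke libraries reached 28.1 CPM. The log2 fold change was 0.35 ± 0.17 after silica and 0.50 ± 0.17 in the combined group. The call in the combined group was lost with DESeq2 and without any single one of air 1, air 6, combined 5 or combined 6.

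Clec7a (502902), or Dectin-1, the beta-glucan receptor with an ITAM-like motif of its own, stood at 96.9 to 249.4 CPM in air (median 178), 167 to 352 in silica (median 225), 139.7 to 229 in smoke (median 193) and 209.7 to 269 in the combined group (median 255). The groups overlapped throughout, with log2 fold changes of 0.33 ± 0.16 after silica and 0.44 ± 0.16 in the combined group. The latter call was lost with DESeq2, limma voom or quality weights, and without any single one of 11 libraries, air 6 giving the highest adjusted p.

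The shared adaptors had smaller log2 fold changes than Lilrb4 and Fcgr2b, a contrast between genes that was not tested. Tyrobp (361537) stood at 43.4 to 82.5 CPM in air (median 70.4), 68.1 to 121 in silica (median 90.0), 60.8 to 106 in smoke (median 84.4) and 109 to 144 in the combined group (median 118). Its 106 CPM in smoke was 2 counts in smoke 2, and the other smoke libraries reached 99.5 CPM. Fcer1g (25441) stood at 30.9 to 76.7 CPM in air (median 56.0), 60.3 to 104 in silica (median 76.1), 47.8 to 72.3 in smoke (median 67.1) and 82.5 to 110.0 in the combined group (median 100.4). For both, every combined library lay above every air library and every smoke library. The log2 fold changes in the combined group were 0.87 ± 0.14 for Tyrobp and 0.85 ± 0.16 for Fcer1g, and after silica 0.44 ± 0.14 and 0.52 ± 0.17, neither passing. Both adaptors passed after silica without silica 1, where 8.74% of all tested genes passed, or without air 5, where 4.83% did.

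**Figure D2:**
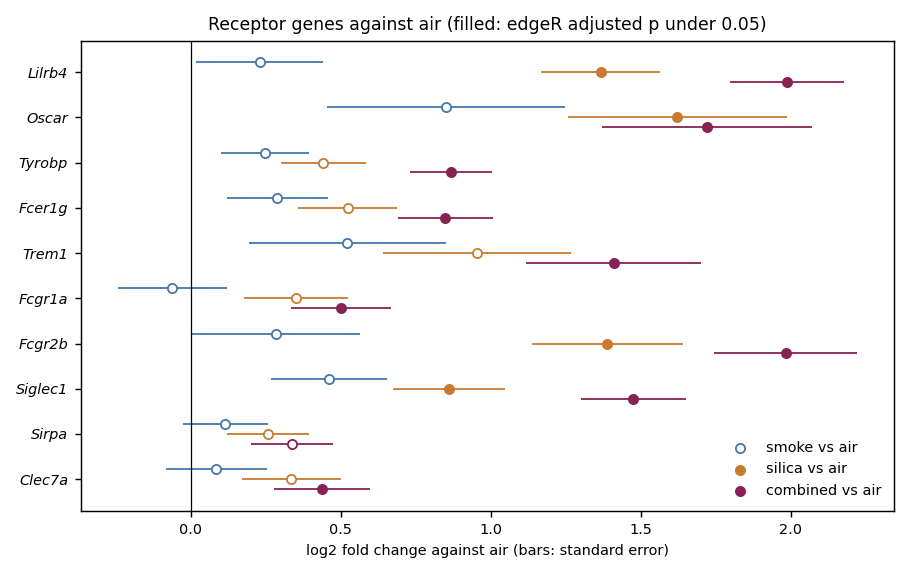
Log2 fold change of each receptor gene against air, with its standard error, for smoke, silica and combined (6 libraries against 6). Filled points passed edgeR's adjusted p under 0.05. Smoke estimates lie between -0.06 and 0.85 and none is filled, and combined estimates between 0.34 (Sirpa) and 1.99 (Lilrb4).

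Across the 10 genes, libraries of 2 groups did not overlap for 2 genes between silica and air (Lilrb4 and Oscar, 0.36% of tested genes), for 0 between smoke and air (0.0375%), for 7 between combined and air (6.37%) and for 5 between combined and smoke (4.51%). Oscar, among the 2 and the 7, rests on few counts. Without silica 1, smoke 1 and smoke 2 the counts were 4 between silica and air (3.62%), 0 between smoke and air (0.998%), 7 between combined and air (6.37%) and 8 between combined and smoke (9.05%). Silica added to smoke, the combined group against smoke, passed for 7 of 10 genes, where 12.9% of tested genes passed (7.34% higher and 5.57% lower): Lilrb4 (1.76 ± 0.20), Fcgr2b (1.70 ± 0.25), Siglec1 (1.01 ± 0.18), Trem1 (0.89 ± 0.30), Tyrobp (0.62 ± 0.14), Fcgr1a (0.56 ± 0.18) and Fcer1g (0.56 ± 0.17). That count was 4 without smoke 3, smoke 5 or combined 6, and the share of all tested genes in those fits is not given. The call of Trem1 was lost with DESeq2, with RLE scaling and in 11 of 24 fits that left out 1 library, that of Fcgr1a with DESeq2 and in 6 of 24, and that of Fcer1g in 3 of 24. Smoke added to silica, the combined group against silica, gave estimates from 0.08 (Sirpa) to 0.62 (Lilrb4), with 0 of 10 passing by edgeR (4 at an unadjusted p under 0.05; 0 with DESeq2, limma voom or quality weights), where 0.248% of tested genes passed (0.12% higher and 0.128% lower). In that comparison, 1713 of all 13322 tested genes stood at an unadjusted edgeR p under 0.05. The interaction, the log2 effect of both beyond the sum of each, ran from -0.75 ± 0.50 (Oscar) to 0.39 ± 0.28 (Lilrb4). It passed for 0 of 10 genes (0 at an unadjusted p under 0.05, 0 with the other 3 methods), and for 0.0% of all tested genes (7.33% at an unadjusted p under 0.05).

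Without silica 1, smoke 1 and smoke 2, 7 of 10 genes passed after silica (11.8% of tested genes), 10 of 10 in the combined group (25.6%), 0 of 10 with smoke (0.168%), 1 of 10 between combined and silica (0.293%) and 8 of 10 between combined and smoke (20.1%). The added genes after silica were Tyrobp, Fcer1g and Trem1. Silica 1 and smoke 1 were seen to stand apart in the levels of these same 10 genes. Air 6, the lowest air library for 10 of 10 genes, was kept. These counts are therefore a description and no check of the others.

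The pair of IgG receptors was set side by side within each library. The ratio of Fcgr2b to Fcgr1a CPM was 0.725 to 1.25 in air (median 0.831), 0.805 to 2.50 in silica (median 1.88) and 1.65 to 3.38 in the combined group (median 2.61). In smoke without smoke 2 it was 0.735 to 1.5 (median 1.02). Every combined library had a higher ratio than every air library, and silica 1 alone of the silica libraries lay in the air range. The ratio of Lilrb4 to Tyrobp was 0.522 to 0.887 in air (median 0.650) and 0.765 to 1.53 in silica (median 1.37). It was 1.12 to 1.801 in the combined group (median 1.38) and, without smoke 2, 0.392 to 0.930 in smoke (median 0.624). Combined libraries again lay above all air libraries, and silica 1 alone of the silica libraries lay in the air range. No share over other gene pairs was computed. Because gene lengths differ, the change of such a ratio between groups can be read and its absolute size cannot.

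Part of the macrophage markers rose in the same groups. Of 10 listed macrophage markers 9 were tested, and in the combined group 5 were higher (Cd68, Itgax, Msr1, C1qa and C1qb) and 1 lower (Cd163), while Csf1r, the receptor most macrophages need, stood at 0.05 ± 0.07. After silica 2 were higher. Of all tested genes, 11.6% were higher and 10.8% lower in the combined group, and 2.15% were higher after silica. With smoke alone Cd163, a scavenger receptor for haemoglobin, was lower (-1.19 ± 0.23, edgeR adjusted p = 0.0238), as it was in the combined group, and the other 8 did not pass. Marco, a scavenger receptor of alveolar macrophages, had at most 2 counts in any library. The summed macrophage markers were 595 to 963 CPM in air, 708 to 1123 in silica, 318 to 932 in smoke and 988 to 1112 in the combined group, where the 318 is smoke 2 with 6 counts. The largest parts of the sum were Mrc1 (median 296 CPM in air and 358 in the combined group) and Csf1r (221 and 227). Neither passed in the combined group, and the markers that rose weigh less in the sum. Scaling by that sum was therefore no test of macrophage content. Per 100 CPM of that sum, Lilrb4 was 4.71 to 6.67 in air and 14.8 to 19.7 in the combined group, Fcgr2b 2.11 to 2.84 and 6.49 to 8.36, and Siglec1 2.14 to 2.93 and 4.33 to 6.39. None of these ranges overlapped, and the share of all tested genes that do so on this scale was not computed. On the same scale Sirpa had a median of 25.7 in both groups, Clec7a 24.7 in air and 24.5 in the combined group, and Fcgr1a 2.69 and 2.74, all with overlap. The medians in air and combined were 8.63 and 11.6 for Tyrobp, 6.83 and 9.98 for Fcer1g, 0.696 and 1.51 for Trem1 and 0.268 and 0.628 for Oscar, and of these Trem1 alone had ranges that did not overlap.

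**Figure D3:**
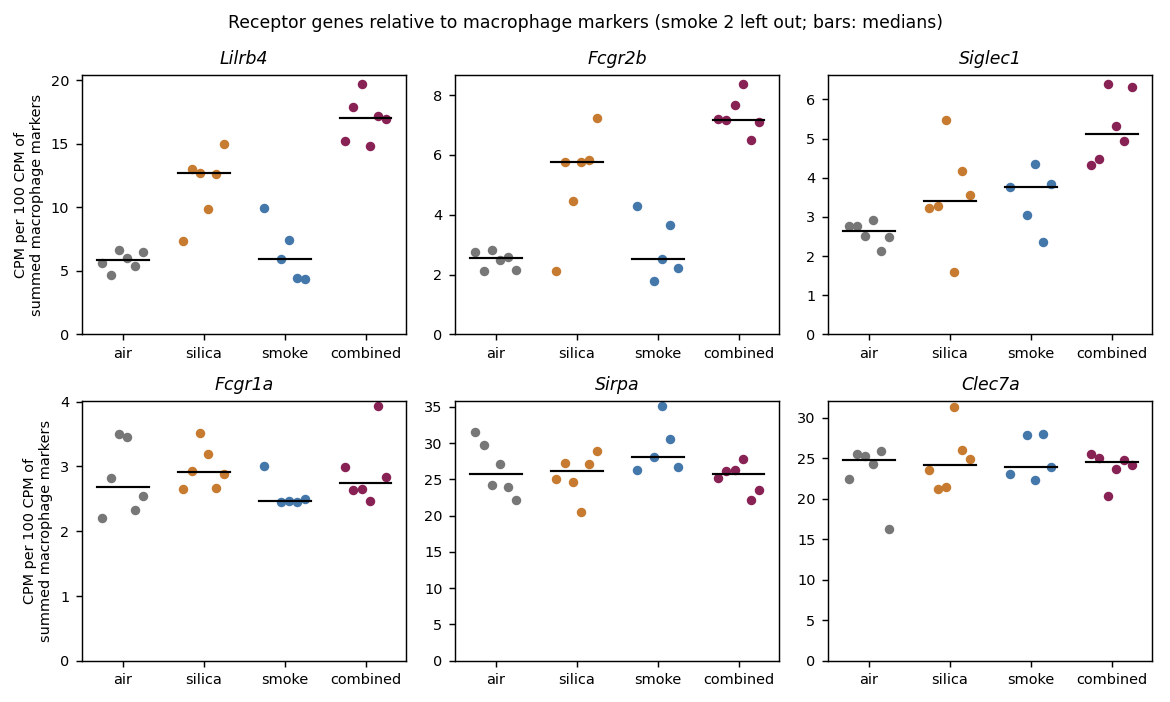
Level of 6 receptor genes per 100 CPM of 10 summed macrophage markers, by library and group, on linear axes from 0, with a bar at the median and smoke 2 left out. Lilrb4, Fcgr2b and Siglec1 (upper row) lie higher in every combined library than in any air library, and Fcgr1a, Sirpa and Clec7a (lower row) overlap.

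Some neutrophil markers rose too. The list's sum over 9 genes was 97.8 to 162 CPM in air, 137 to 691 in silica, 144 to 688 in smoke and 398 to 856 in the combined group, and silica 1 was the lowest silica library. The 688 CPM is smoke 2 with 13 counts, and smoke 1 stood at 528 CPM, against 144 to 198 in smoke 3 to 6. The largest part of the sum was S100a9, with a median of 46.7 CPM in air and 552 in the combined group. Of 7 neutrophil markers tested, 4 were higher after silica and 5 in the combined group (S100a8, S100a9, Csf3r, Cxcr2 and Il1r2). Over all tested genes 2.15% and 11.6% were higher. In the combined group Mmp8 (0.17 ± 0.30) and Retnlg (-0.45 ± 0.27) did not pass. Mpo, a neutrophil granule enzyme made mainly in precursors, had at most 1 count in any library. Monocyte markers summed to 83.1 to 157 CPM in air and 157 to 191 in the combined group, and 1 of 4 tested passed there: Itgam, the shared myeloid integrin chain, at 1.79 ± 0.18. Cx3cr1 (0.30 ± 0.17), Vcan (0.09 ± 0.27) and Plac8 (-0.22 ± 0.27) did not pass. Of the osteoclast markers set beside Oscar, Calcr had at most 3 counts and Dcstamp 0 counts in every library, while the macrophage-expressed Acp5 (1.04 ± 0.20) and Ctsk (1.66 ± 0.25) were higher in the combined group. Endothelial markers ran the other way, at 2639 to 3209 CPM in air and 1955 to 2198 in the combined group. The part of any of these cells in the receptor values was not tested.

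Genes outside the 10 but of the same pathway were taken from lists of other receptors, signalling proteins and ligands. These lists too were chosen with earlier results of these libraries known. Their counts and medians are a description and give the 10 genes no outside support. Over all tested genes, 3.17% passed after silica and 22.4% in the combined group (11.6% higher and 10.8% lower). The median log2 fold changes over all tested genes were -0.004 and -0.009. Of 16 other activating receptors tested, 2 were higher and 14 did not pass after silica, and 8 were higher, 0 lower and 8 did not pass in the combined group. Their median log2 fold change was 0.54 and 0.68, and a further 6 listed genes were too low to test. Cd300ld, an Fcer1g-coupled receptor of the CD300 family, rose in the combined group from a median of 4.09 to 13.6 CPM (1.86 ± 0.37, edgeR adjusted p = 5.22e-04). It also rose after silica (1.53 ± 0.39, adjusted p = 0.0277), as did Clec4d (0.86 ± 0.22, adjusted p = 0.0260), and both silica calls were lost with DESeq2 and limma voom. Clec4e, or Mincle, the Fcer1g-coupled sensor of glycolipids and dead cells, rose by 1.56 ± 0.33 in the combined group (adjusted p = 8.94e-04). Trem3 rose by 1.23 ± 0.26, the Tyrobp-coupled lectin Clec5a by 1.12 ± 0.26 and Cd300le by 0.97 ± 0.19. Among abundant members not passing, the lipid receptor Trem2 stood at 0.70 ± 0.32 (adjusted p = 0.113) and the IgG receptor Fcgr3a at -0.23 ± 0.17 (adjusted p = 0.368). Air 6 held 2.25 CPM of Trem2 where the air median was 49.98.

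Of 16 other inhibitory receptors tested, 1 was higher after silica and 15 did not pass, and 8 were higher, 0 lower and 8 did not pass in the combined group, with medians of 0.37 and 0.55. Of all tested genes, 3.17% and 22.4% passed in these comparisons. Havcr2 (Tim-3) rose in the combined group from a median of 2.22 to 7.59 CPM (1.75 ± 0.29, adjusted p = 1.01e-04), and the sialic acid receptor Cd33 from 10.6 to 28.1 CPM (1.41 ± 0.24, adjusted p = 1.25e-04). Cd300a rose in both (0.99 ± 0.24 after silica and 1.25 ± 0.23 in the combined group), with the silica call lost with DESeq2 and limma voom. Clec12a rose by 0.84 ± 0.18 (not passing with DESeq2), Cd300lf by 0.82 ± 0.20 and Siglec8 by 0.73 ± 0.18. The checkpoint receptor Vsir, listed under the symbol MGC112715, stood at 0.11 ± 0.09 and Ceacam1 at -0.21 ± 0.11.

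Of 26 signalling genes tested, 4 were higher after silica (Fgr, Malt1 and Lcp2 among them) and 22 did not pass, and 14 were higher, 0 lower and 12 did not pass in the combined group, with medians of 0.20 and 0.30. Over all tested genes the shares passing were 3.17% and 22.4%. The Src-family kinase Fgr, which phosphorylates both motifs, rose in the combined group by 0.98 ± 0.12 (adjusted p = 1.67e-06). Dok3, an adaptor that restrains ITAM signalling, rose by 1.14 ± 0.20, Vav1 by 0.89 ± 0.13, Pik3ap1 by 0.55 ± 0.11 and Malt1 by 0.54 ± 0.11. Syk and the ITIM phosphatase Ptpn6 were among the 14, while the more broadly expressed phosphatase Ptpn11 stood at -0.05 ± 0.08 and the ubiquitin ligase Cbl at 0.18 ± 0.07 (adjusted p = 0.0641).

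**Figure D4:**
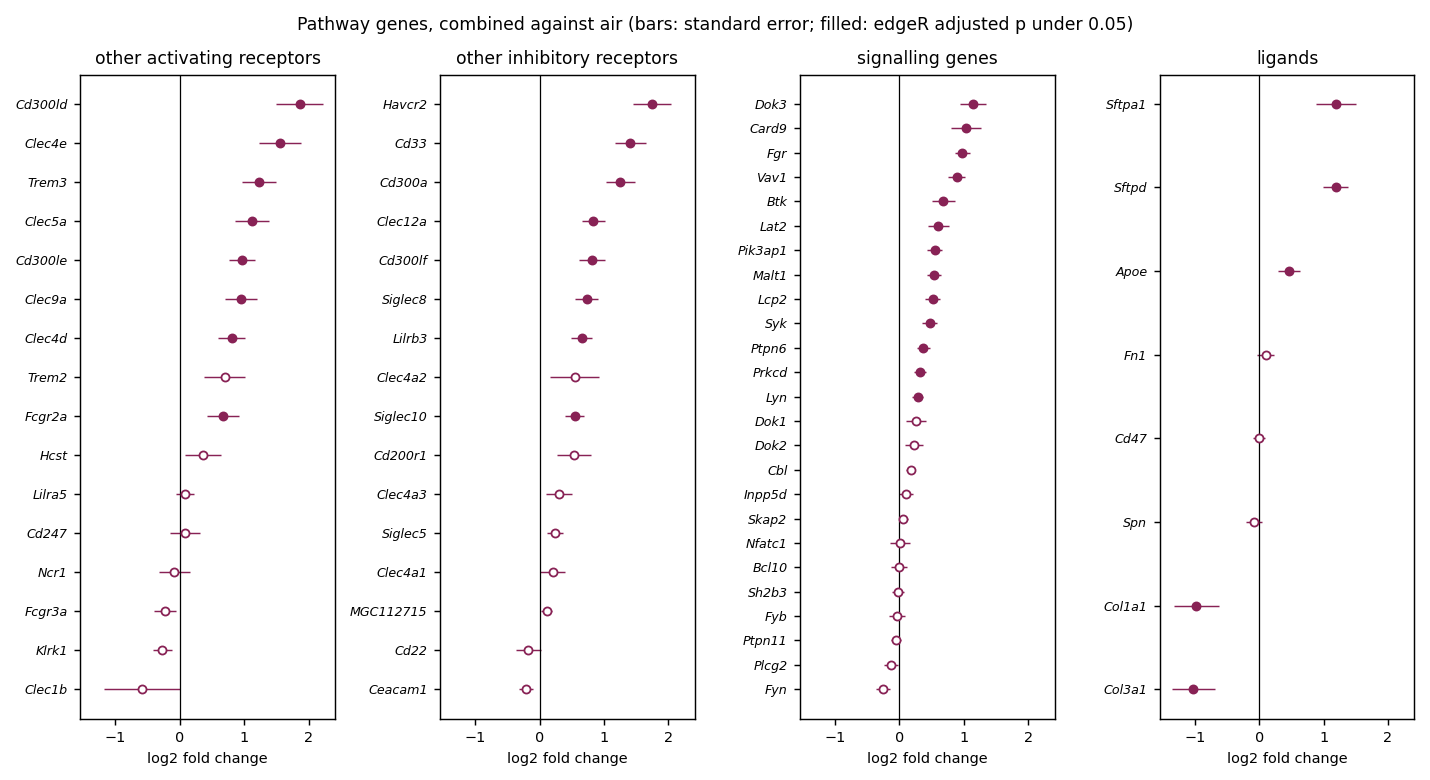
Log2 fold change between the combined group and air for the tested genes of the 4 pathway lists, 1 signalling gene left out, with its standard error (6 libraries against 6); filled points passed edgeR's adjusted p under 0.05. In the 2 receptor lists and the signalling list every filled point lies to the right of 0. MGC112715 is Vsir and Fyb is Fyb1.

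Ligands of the receptors were tested for 8 genes. After silica 0 passed (4 at an unadjusted p under 0.05; 0 with DESeq2 or limma voom and 1 with quality weights). Of all 13322 tested genes, 2427 stood at an unadjusted edgeR p under 0.05 after silica. In the combined group 3 ligands were higher and 2 lower, where 11.6% of all tested genes were higher and 10.8% lower. Sftpd, the surfactant collectin that binds Oscar and Sirpa, rose from a median of 662 to 1409 CPM (1.19 ± 0.19, adjusted p = 5.54e-05), and Sftpa1 rose by 1.19 ± 0.31 (not passing with limma voom). The summed alveolar type 2 markers, Sftpa1 among them, had medians of 15880 CPM in air, 22560 in silica, 14220 in smoke and 25470 in the combined group, and their part in the ligand values was not tested. Apoe, a ligand reported for LILRB4, rose by 0.46 ± 0.17, a call lost with DESeq2, limma voom or quality weights. The Oscar ligands Col1a1 and Col3a1 were lower by -0.98 ± 0.35 and -1.02 ± 0.34, and stood at -0.13 and -0.07, not passing, without air 6. The count of ligands passing in the combined group was 2 without air 6 or combined 3, and 3 without any one of combined 1, 2, 5 or 6. The share of all tested genes in those fits is not given. The Sirpa ligand Cd47 stood at -0.01 ± 0.09 and the fibronectin gene Fn1 at 0.10 ± 0.13. With smoke alone 0 genes passed by edgeR in each of the 4 lists (4, 4, 1 and 1 at an unadjusted p under 0.05 for the activating, signalling, inhibitory and ligand lists), and 0 with DESeq2, limma voom or quality weights. With smoke, 1105 of all 13322 tested genes stood at an unadjusted edgeR p under 0.05.

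In the silica comparison these list counts depended on single libraries. The share of all tested genes passing moved too, though not always in the same direction, so nothing is read about the lists. Without silica 1, 7 activating, 6 inhibitory and 8 signalling genes passed, and 8.74% of all tested genes. Without any one of silica 2 (1.33% of all tested genes), silica 3 (1.23%) or silica 6 (0.937%) the counts were 0, 0 and 1, and without silica 5 (0.931%) they were 0 and 1 for the activating and signalling lists. Among the air libraries, 1 activating gene passed without air 1, air 3 or air 6 and 4 without air 5, 2 inhibitory genes passed without air 2 or air 5, and 2 signalling genes without air 4 or air 6. Of the ligands 1 passed without air 5, silica 1 or smoke 1, and 2 without smoke 2. Of all tested genes, 2.29% passed without air 1, 3.06% without air 2 and 2.47% without air 3. It was 2.2% without air 4, 4.83% without air 5 and 2.15% without air 6. Without smoke 1 it was 3.93%, and without smoke 2 4.17%.

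Among the genes whose levels ran most like the mean of the 10, over 23 libraries of at least 100000 counts and among 12464 genes, were Sema4a (Spearman's rho 0.969), the cathepsins Ctsz (0.962) and Ctsd (0.960), the galectin Lgals3 (0.960), the fatty acid carrier Fabp5 (0.956), Fetub (0.952) and C4bpa (0.951). These values share libraries and group differences with the 10 genes and are a description of likeness. Sema4a stood at medians of 84.9 CPM in air, 153 in silica, 111 in smoke and 186 in the combined group.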

How the data were processed

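RNA sequencing of 24 rat lungs was used, 6 in each of 4 groups taken from the treatment label. The authors deposited whole-number counts per gene, not normalized, in 1 table. Their notes on processing name bcl2fastq (version 2.19) and Trimmomatic (0.35), with HISAT2 (2.1.0), SAMtools (1.8), Cufflinks and HTSeq (0.11.2), per the submitters' processing notes. For the genome build, annotation and strand setting: not given in the sources used here. Libraries were ribosomal RNA-depleted and stranded, per the labels' protocols. Of 30069 lines 26 repeated another and were removed. Library totals ran from 21629 to 4687805 counts (median 2335358), and detection limits of 3 counts cover counting error only.

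Counts were fitted in R 4.3.3 with edgeR 4.0.16 (filterByExpr with a minimum count of 10, TMM scaling, quasi-likelihood test, 1 mean per group over all 24 libraries, 20 residual degrees of freedom). Tests were two-sided, Benjamini-Hochberg adjusted over 13322 genes, and called under 0.05. CPM use the TMM-scaled total of tested genes. Values after ± are standard errors, obtained from each log2 fold change and the root of its F statistic. No pair of libraries within a group agreed within sampling noise (lowest chi-square per degree of freedom 1.73). Replicates were numbered in accession order and pair nothing, so p-values measure the spread between the deposited libraries.

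The 10 genes and all lists were chosen with earlier results of these data known. All 10 were named in every comparison. Of each pathway list up to 6 members passing with the smallest p in silica or combined against air were named, with the 2 most abundant that passed in neither, and the genes of most like pattern (log2 of CPM plus 0.5, mean of at least 5 CPM). Older symbols were matched through RefSeq names of assembly GRCr8. Alternatives used DESeq2 1.42.0, limma 3.58.1 (voom, with and without quality weights), RLE scaling, other count filters, the 2 groups alone and left-out libraries. The fit was also run on counts simulated for silica against air. There 91% of 100 genes changed 2-fold, 99% of 100 changed 4-fold and 0.0694% of unchanged genes passed. The simulated libraries differed only in depth and in the changed genes, with none standing apart as silica 1, smoke 1 or smoke 2 did. These shares therefore do not tell how often real differences of that size pass. Genes that meet these rules but are not reported here were left out of the text and of the pathway plot.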

Additional observations from a re-analysis of the deposited data

Results flagged for a closer look

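In 40 groups of 6 libraries (10 genes in 4 groups) 4 single values lay far from the other 5 of their group by Dixon's criterion, where chance gives about 1 in 20 groups. Lilrb4 in silica 1 stood at 52.1 CPM, below silica libraries of 111 CPM or more. Lilrb4 in smoke 1 stood at 92.6 CPM, above smoke libraries of at most 53.0 CPM. Fcgr1a in smoke 2 stood at 106 CPM, which was 2 counts. Sirpa in smoke 2 stood at 0 CPM, in a library where 3 counts stand at 159 CPM.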

How the results depend on the processing

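The limits lie in depth, since smoke 2 (21629 counts) and silica 4 (280484 counts) measure low genes poorly, and in libraries that stand apart. Over 52 results on the 10 genes, recomputed 1704 times, 1624 kept direction and side of the threshold, 46 lost a call, 22 gained one and 12 changed sign. Leaving out smoke 2 and silica 4 was chosen after seeing the data. No paired analysis was possible because the labels give no replicate numbers shared between groups. Where a value changed, the cause was not tested.

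Of the 10 genes, 4 passed for silica against air, 2 with the 2 groups only, 7 without silica 1, smoke 1 and smoke 2, and 3 to 7 when single libraries were left out. For combined against silica the count was 0, 1 without those 3 libraries, and 0 to 1 without single ones (1 without silica 3 or smoke 1). For combined against smoke it was 7, and 4 to 8 without single libraries. Of all tested genes, 3.17% passed for silica against air, 11.8% without those 3 libraries and 0.931% to 8.74% without single ones. For combined against silica 0.248% passed, and 0.293% without those 3. For combined against smoke 12.9% passed. Shares in the other settings are not given, so nothing is read from these counts.

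For silica against air, the other activating receptors (2) gave 0 with DESeq2, 0 with limma voom, 5 with quality weights, 0 with the 2 groups only, 7 without the 3 libraries, and 0 to 7 without single ones. The other inhibitory receptors (1) gave 0, 0 and 5 with those 3 methods, 7 without the 3 libraries and 0 to 6 without single ones. Signalling genes (4) gave 1 with DESeq2, 1 with limma voom, 0 with the 2 groups only, 10 without the 3 libraries and 1 to 8 without single ones. Ligands (0) gave 1 with quality weights, 2 without the 3 libraries, 1 without the 2 shallowest and 0 to 2 without single ones. For combined against air, ligands (5) gave 2 with DESeq2, 1 with limma voom, 2 with quality weights, 2 with the 2 groups only and 2 to 5 without single libraries. Of all tested genes, 3.17% passed for silica against air, 11.8% without the 3 libraries and 0.931% to 8.74% without single ones. For combined against air 22.4% passed. Shares in the other settings are not given, so these counts are no result about the lists.

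Some log2 fold changes that did not pass changed sign. With smoke against air, Lilrb4 was -0.0245 with quality weights, -0.13 without the 3 libraries and -0.13 to 0.34 without single ones, and Fcgr2b -0.0562, -0.0723 and -0.0765 to 0.44. Without single libraries, Fcgr1a was -0.23 to 0.0325 and Clec7a -0.0541 to 0.196 with smoke, and Oscar -0.026 to 0.24 between combined and silica. Sirpa in that comparison was -0.0067 without the 3 libraries and -0.0033 to 0.13 without single ones. For silica against air, quality weights gave -0.0011 for MGC112715, 0.0178 for Ceacam1 and 0.0031 for Col1a1 (-0.88 ± 0.36 with edgeR on all libraries, and -0.03 without air 6), and Ceacam1 was 0.001 without the 2 shallowest libraries. Without single libraries Trem2 was -0.15 to 0.34, MGC112715 -0.0193 to 0.0504, Ceacam1 -0.0564 to 0.0539 and Ptpn11 -0.0424 to 0.002. For combined against air, Cd47 was 0.0056 with limma voom and -0.0624 to 0.0386 without single libraries.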
